A study of Mus musculus with 9 samples.

Results

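RNA levels of 8 genes that encode arcuate feeding peptides and the receptors for them were compared between Clic1 KO and WT mice in hypothalamic tissue. The genes were chosen by name: the peptide genes Agrp, Npy, Pomc and Cartpt, the neuropeptide Y receptor genes Npy1r, Npy2r and Npy5r, and the melanocortin 4 receptor gene Mc4r. All 8 of 8 were among the 14351 protein-coding genes of the deposited expression table. RNA sequencing had been performed on 9 hypothalami, 1 library per male mouse, from 5 mice lacking Clic1 throughout the body and 4 WT mice. The study's methods describe a CD-1 background, WT littermates as controls and a normal chow diet, whereas the sample labels name the strain C57b/6J, and the age of these mice was not given in the sources used here. Because the knockout was whole-body, effects of the deletion in the hypothalamus cannot be told apart from effects arising in other tissues. Replicate 10 was named as a KO in 1 label field and as WT in others. It was counted as KO, and values that moved with it are also given without it. The labels name the tissue as hypothalamus, as do the study's methods, but their treatment field mentions adipose tissue; the hypothalamus markers below were all present.

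The arcuate nucleus of the hypothalamus holds a pair of neuron populations with opposite actions on feeding. AgRP neurons release neuropeptide Y and agouti-related peptide and promote feeding, whereas POMC neurons cut alpha-MSH from the proopiomelanocortin precursor and restrain feeding, and many of them also make CART. Alpha-MSH activates the melanocortin 4 receptor on target neurons, for example in the paraventricular hypothalamus, and AgRP opposes it at the same receptor, while neuropeptide Y acts on its own family of inhibitory G protein-coupled receptors. Npy, Cartpt and the receptor genes are also expressed outside the arcuate nucleus, and in bulk tissue fewer cells of a type and less RNA per cell cannot be told apart.

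Libraries held an estimated 5470000 to 20800000 reads, with KO replicate 6 the shallowest and KO replicate 10 the deepest. Clic1 RNA, given like all levels here in CPM (counts scaled to library size with TMM normalisation), ranged from 0.733 to 1.93 CPM among KO libraries and from 3.58 to 5.52 CPM among WT libraries, and replicate 10 had 1.43 CPM (log2 fold change -1.80, SE 0.27; limma, adjusted p = 0.0153). Replicate 10 stood apart from the rest, with a median rank correlation of 0.9743 with the other libraries, whereas the lowest correlation between any pair of those others was 0.9891. Of the hypothalamus marker genes, 11 of 11 were in the table and 2 had an unadjusted p under 0.05, Avp and Lhx1, the latter named after its value was seen (log2 fold change 0.35; limma, adjusted p = 0.506), and 1 passed the test, Avp (vasopressin), at 206.7 ± 27.4 CPM in KO (SD, n = 5) and 111.0 ± 13.6 CPM in WT (SD, n = 4; limma, adjusted p = 0.0027). Otp and Oxt also had an unadjusted p under 0.05 in the limma fit without replicate 10. Their log2 fold changes were then 0.18 (limma, adjusted p = 0.33) and 0.34 (limma, adjusted p = 0.41). Markers of other arcuate neurons were present for 8 of 9 genes, all but Kiss1. Their summed levels ran from 276.1 to 301.1 CPM (KO) and from 288.2 to 373.0 CPM (WT). Of these genes 0 passed with replicate 10 as KO, also at an unadjusted p under 0.05. Without replicate 10, Sst, named after its value was seen, had a log2 fold change of -0.17 (limma, unadjusted p = 0.03, adjusted p = 0.397). The smallest unadjusted p-values were those of Ghrh, with a log2 fold change of 0.24, and Prlr, with -0.17. Slc6a3 and Th, named after their values were seen, ran from 3.44 to 77.1 CPM and from 21.2 to 53.2 CPM among WT libraries. Among KO libraries they ran from 5.4 to 22.7 CPM and from 22.6 to 33.2 CPM. The part of these genes in the summed levels was not tested. Markers of neighbouring tissues and other cells were also present, and 0 passed the test, with 1 (Mbp) at an unadjusted p under 0.05, among tanycyte and ependymal genes (9 of 9 in the table, median log2 fold change 0.04 with 4 below 0 and 5 above it, Rax at 0.34 and Tmem212 at 0.26), striatal genes (6 of 6, Ppp1r1b at -0.22 and Drd2 at -0.21), cortical genes (4 of 5, all but Emx1, Neurod6 at 0.21 and Neurod2 at 0.23), thalamic genes (4 of 5, all but Gbx2, Tcf7l2 at -0.16 and Prkcd at 0.16) and oligodendrocyte genes (5 of 5, Mbp at -0.22). In the limma fit without replicate 10, Mbp (-0.15), Mog (-0.29) and Ppp1r1b (-0.30) had an unadjusted p under 0.05. Their adjusted p-values in that limma fit were 0.281, 0.401 and 0.331.

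The sequence just upstream of a gene's start is shown for the peptide genes Npy and Pomc and for Npy2r, the gene whose libraries separated by genotype, and for Cartpt only the stretch around a cyclic AMP response element is shown. Positions are relative to the RefSeq start. For Cartpt the longer of the GENCODE M21 transcripts starts further upstream, so the stretch shown lies within the annotated 5' exon of that transcript. Promoters of 6 of the 8 genes were matched in RefSeq (GRCm38.p6), and Agrp and Mc4r were not among them. Each sequence runs 5' to 3' on the strand of the gene, and capitals mark the TATA-like motif ATAAAA or, in Cartpt, the cyclic AMP response element TGACGTCA.
Npy, 120 bases upstream of the start, chr6:49822590-49822709, plus strand: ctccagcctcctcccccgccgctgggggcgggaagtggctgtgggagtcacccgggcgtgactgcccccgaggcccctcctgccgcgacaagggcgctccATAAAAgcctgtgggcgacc
Pomc, 120 bases upstream of the start, chr12:3954825-3954944, plus strand: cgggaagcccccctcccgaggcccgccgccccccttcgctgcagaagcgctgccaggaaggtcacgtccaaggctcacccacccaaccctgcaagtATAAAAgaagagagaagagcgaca
Cartpt, 24 bases, chr13:99900780-99900803, minus strand: gcgggcatTGACGTCAaacggcag
Npy2r, 120 bases upstream of the start, chr3:82548086-82548205, minus strand: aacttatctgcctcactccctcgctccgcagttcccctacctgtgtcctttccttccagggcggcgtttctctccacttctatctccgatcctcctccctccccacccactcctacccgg
The ATAAAA motif began 20 bases before the start in Npy and 24 bases before it in Pomc. It was searched on the gene strand with its first base from 40 to 20 bases before the start. There 1.74% of 32851 promoters held it, and Cartpt, Npy1r, Npy2r and Npy5r had no match. Of the 120 bases upstream of the RefSeq start, 120 in Npy1r and 34 in Npy5r also lay in GENCODE M21 exons. For these genes, as for Cartpt, the search was placed by the RefSeq start only. TGACGTCA, searched on both strands within 250 bases before the start, began 112 bases upstream in Cartpt and was found in 1.55% of promoters. The STAT-type motif TTCNNNGAA, searched on both strands in the same window, was found in 0 of the 6 promoters and in 7.02% of all promoters. The search found letters only and tested no binding.

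On the scale of CPM per kb of exon, which allows levels of different genes to be compared, the precursor of the CART peptides, Cartpt, was the highest of the 8 genes with a median of 48.6 and a range of 31.9 to 68.3 over the 9 libraries. Npy followed at 36.2 (30.7 to 57.4), and Pomc at 19.1 (12.6 to 39.7). The receptors lay lower, with Npy2r at 7.04 (5.63 to 7.69), Npy1r at 5.65 (4.47 to 7.06) and Npy5r at 2.07 (1.46 to 2.22) CPM per kb. Agrp, although a peptide gene, was at 1.63 (0.542 to 3.71), between the receptors, and Mc4r was the lowest at 0.948 (0.719 to 1.4). The exon length of Agrp, 1013 bases, joined all exons of a GENCODE M21 model that overlapped 7 other genes. Its value per kb and its place among the 8 genes depend on that length. The ranges of neighbours in this order overlapped except between Pomc and Npy2r and between Npy1r and Npy5r, where the higher gene exceeded the lower in 9 of 9 libraries. Cartpt exceeded Npy in 7 libraries, Npy exceeded Pomc in 8, Npy2r exceeded Npy1r in 7, Npy5r exceeded Agrp in 7 and Agrp exceeded Mc4r in 6.

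**Figure D1:**
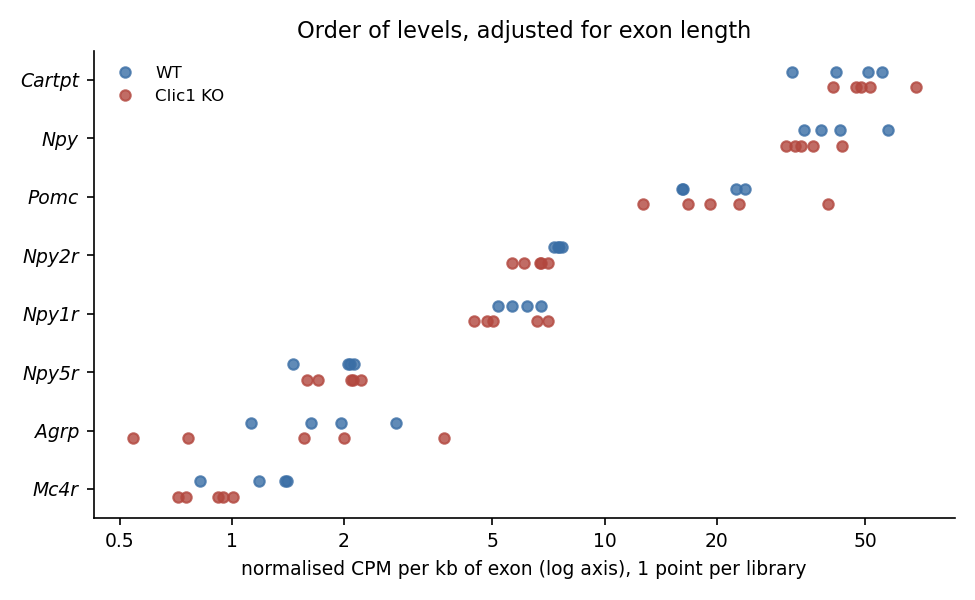
Level of each gene in CPM per kb of exon (log axis), with 1 point per library, blue for WT and red for Clic1 KO. The peptide genes Cartpt, Npy and Pomc lie above the receptors, while Agrp spreads from 0.542 to 3.71 among the low receptor genes.

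To ask whether the feeding peptide system differed between genotypes, the level of each gene was compared between the 5 KO and 4 WT libraries with limma on log2(CPM + 0.1), with Benjamini-Hochberg adjustment over all 14351 genes. None of the 8 genes passed an adjusted p of 0.05, where 0.286% of all genes did, and the smallest adjusted p was 0.698; limma-voom on estimated counts also called 0 of the 8. At an unadjusted p under 0.05, 1 of the 8 genes was called, Npy2r, beside 6.5% of all genes. The log2 fold change from WT to KO was below 0 for 5 genes and above 0 for 3, beside 49.6% of all genes below 0, and its median was -0.17 over the 8 genes and 0.0 over all genes. Without replicate 10, or with it in the WT group, 6 genes were below 0 and 2 above, with a median of -0.2. Over all genes the median was -0.002 without replicate 10 and -9e-04 with it in the WT group. The share of all genes below 0 was not taken for these placements. Npy2r was also the 1 gene of the 8 whose libraries did not overlap between genotypes, being lower in every KO library, as were 1.74% of all genes. Without replicate 10 it was again the only 1 of the 8, beside 3.19% of all genes.

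**Figure D2:**
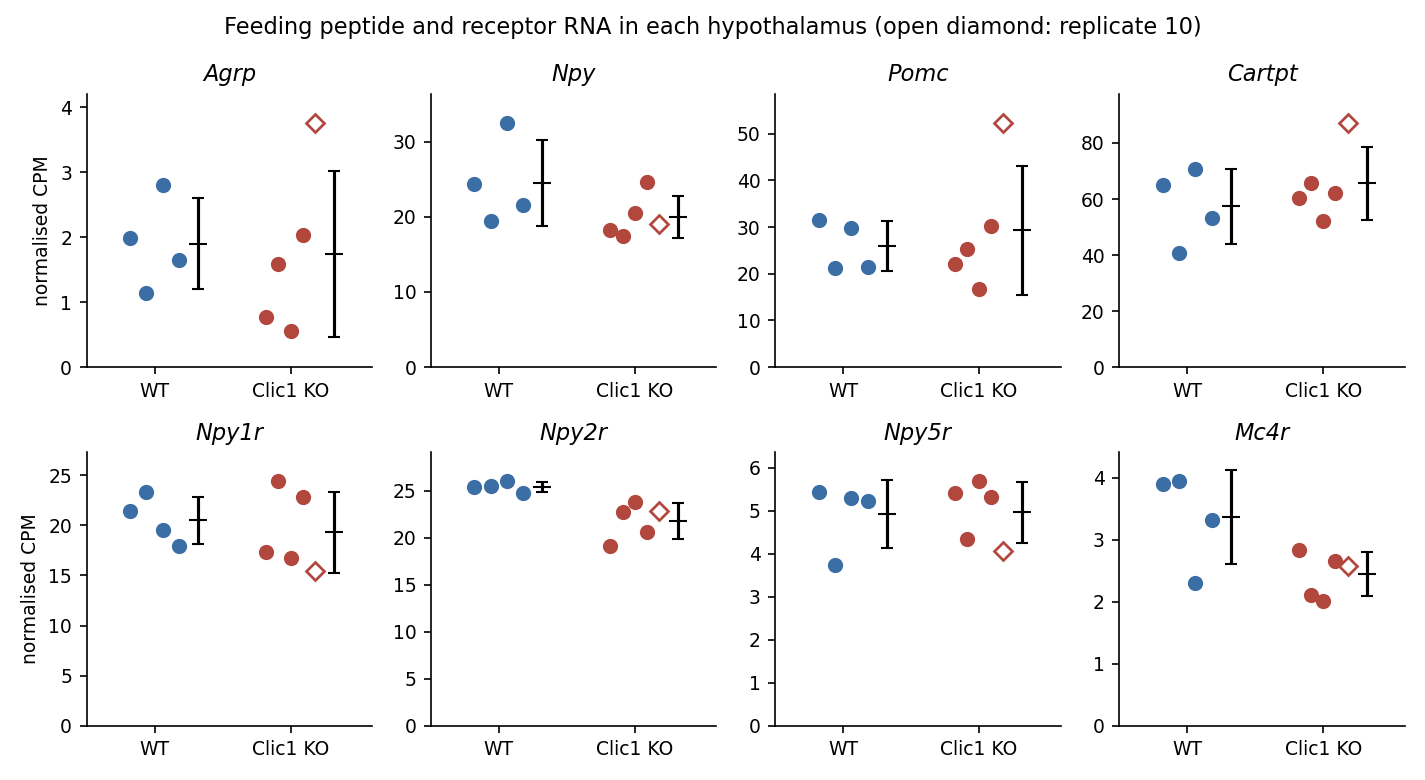
Normalised CPM of the 8 genes in each library, blue for WT and red for Clic1 KO with replicate 10 as an open diamond, and beside them the mean with bars of 1 SD. The Npy2r points of the KO mice (19.1 to 23.8 CPM) lie below all WT points (24.8 to 26.0 CPM), and the points of the other 7 genes overlap.

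Npy (ENSMUSG00000029819, chromosome 6, 49822710 to 49829507, plus strand) encodes neuropeptide Y, which stimulates feeding. Its level was 18.3, 17.4, 20.5, 24.6 and 19.1 CPM in KO replicates 2, 4, 6, 8 and 10 and 24.3, 19.4, 32.5 and 21.6 CPM in WT replicates 1, 3, 9 and 11. The groups overlapped, 3 KO libraries lay below all WT libraries, and WT replicate 9 was the highest of the 9. Means were 20.0 ± 2.8 CPM in KO (SD, n = 5) and 24.5 ± 5.73 CPM in WT (SD, n = 4), and the log2 fold change of -0.27 (SE 0.15, 95% interval -0.6 to 0.05) did not pass the test (limma, adjusted p = 0.807; exact permutation test, two-sided, p = 0.159).

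Agrp (ENSMUSG00000005705, chromosome 8, 105566698 to 105637393, minus strand) encodes agouti-related peptide, the antagonist of alpha-MSH at the melanocortin 4 receptor. Its level was 0.773, 1.58, 0.549, 2.03 and 3.76 CPM in KO replicates 2, 4, 6, 8 and 10 and 1.99, 1.14, 2.8 and 1.65 CPM in WT replicates 1, 3, 9 and 11. The WT libraries lay inside the KO range, with KO replicate 6, the shallowest library, lowest and KO replicate 10, the deepest, highest. These levels rested on an estimated 3 to 76 reads per library, so that the 95% exact Poisson interval was from 0.113 to 1.61 CPM for KO replicate 6 and from 2.96 to 4.7 CPM for KO replicate 10. Such intervals cover counting error only. Means were 1.74 ± 1.28 CPM in KO (SD, n = 5) and 1.9 ± 0.697 CPM in WT (SD, n = 4), and the log2 fold change of -0.34 (SE 0.48, 95% interval -1.38 to 0.71) did not pass the test (limma, adjusted p = 0.917). Without replicate 10 the KO mean was 1.23 ± 0.693 CPM (SD, n = 4) and the log2 fold change -0.67 (adjusted p = 0.611 in the limma fit), and with replicate 10 in the WT group it was -0.88 (adjusted p = 0.736 in the limma fit). In the GENCODE M21 models, 114 of the 1013 exon bases of Agrp were shared with exons of Ctcf, on the other strand, and Gm5914, on the same strand, and strand use in the counting was not given in the sources used here, so reads over those bases cannot be told apart.

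Pomc (ENSMUSG00000020660, chromosome 12, 3954951 to 3960642, plus strand) encodes the precursor of alpha-MSH. KO replicates 2, 4, 6, 8 and 10 had 22.0, 25.2, 16.7, 30.3 and 52.3 CPM, and WT replicates 1, 3, 9 and 11 had 31.4, 21.3, 29.7 and 21.4 CPM. Replicate 10 was above all other libraries, and the remaining KO libraries overlapped with WT. Means were 29.3 ± 13.8 CPM in KO (SD, n = 5) and 25.9 ± 5.35 CPM in WT (SD, n = 4), with a log2 fold change of 0.09 (SE 0.27, 95% interval -0.5 to 0.67; limma, adjusted p = 0.965). The sign of this difference rested on replicate 10, because without it the KO mean was 23.5 ± 5.73 CPM (SD, n = 4) and the log2 fold change -0.15 (limma, adjusted p = 0.823), and with replicate 10 in the WT group it was -0.36. The pituitary also expresses Pomc. Of 11 pituitary markers 7 were in the table and 0 passed the test (2 at an unadjusted p under 0.05), Gh, Prl, Fshb and Pou1f1 were not among its genes, and the summed level of the 7 ranged from 39.0 to 60.4 CPM among KO libraries, with 46.8 CPM in replicate 10, and from 51.3 to 71.2 CPM among WT libraries. The smallest unadjusted p-values in that list were those of Tshb, the thyrotropin beta subunit, at 3.35 to 7.12 CPM across KO libraries and 7.98 to 16.1 CPM across WT libraries (log2 fold change -1.14; limma, adjusted p = 0.192), and the transcription factor gene Pitx1 (-0.84; adjusted p = 0.759), and the part of pituitary tissue in the Pomc values was not tested.

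Cartpt (ENSMUSG00000021647, chromosome 13, 99898489 to 99901091, minus strand) encodes the CART prepropeptide, whose products restrain feeding. KO replicates 2, 4, 6, 8 and 10 had 60.5, 65.8, 52.2, 62.1 and 87.2 CPM, and WT replicates 1, 3, 9 and 11 had 64.9, 40.7, 70.8 and 53.3 CPM. Replicate 10 was again the highest library and WT replicate 3 the lowest, and the groups overlapped. Means were 65.6 ± 13.1 CPM in KO (SD, n = 5) and 57.4 ± 13.3 CPM in WT (SD, n = 4), with a log2 fold change of 0.20 (SE 0.17, 95% interval -0.17 to 0.57; limma, adjusted p = 0.862). Without replicate 10 the KO mean was 60.1 ± 5.74 CPM (SD, n = 4) and the log2 fold change 0.09, and with replicate 10 in the WT group it was -0.03.

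Npy2r (ENSMUSG00000028004, chromosome 3, 82538383 to 82548084, minus strand) encodes the Y2 receptor, known as a presynaptic autoreceptor on AgRP neurons and as a receptor for the gut peptide PYY. Its level was 19.1, 22.7, 23.8, 20.6 and 22.8 CPM in KO replicates 2, 4, 6, 8 and 10 and 25.4, 25.5, 26.0 and 24.8 CPM in WT replicates 1, 3, 9 and 11. Every KO library was below every WT library, with 0.984 CPM between the highest KO and the lowest WT library. Means were 21.8 ± 1.91 CPM in KO (SD, n = 5) and 25.4 ± 0.494 CPM in WT (SD, n = 4), a fold of 0.855 and a log2 fold change of -0.23 (SE 0.09, 95% interval -0.42 to -0.03). In the limma fit the unadjusted p was 0.0254, which ranked 521 of 14351 genes, and the adjusted p was 0.698. The exact permutation test gave p = 0.0159, two-sided, the smallest that 5 libraries against 4 allow. Between 130 and 461 reads per library lay behind these values, and the 95% exact Poisson intervals of single libraries from both groups overlapped, for example KO replicate 6 (19.9 to 28.3 CPM) and WT replicate 11 (21.3 to 28.7 CPM). Leaving out replicate 10 gave a log2 fold change of -0.24 (limma, adjusted p = 0.31), and with replicate 10 in the WT group the value was -0.21 (limma, adjusted p = 0.731) and the groups overlapped.

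Npy1r (ENSMUSG00000036437, chromosome 8, 66697192 to 66706792, plus strand) and Npy5r (ENSMUSG00000044014, chromosome 8, 66679965 to 66688128, minus strand) encode the Y1 and Y5 receptors, through which neuropeptide Y stimulates feeding. The genes lie head to head, with start sites 9.06 kb apart. Npy1r was at 17.3, 24.4, 16.7, 22.8 and 15.4 CPM in KO replicates 2, 4, 6, 8 and 10 and at 21.4, 23.3, 19.5 and 17.9 CPM in WT replicates 1, 3, 9 and 11. The KO libraries lay on both sides of the WT libraries, with replicate 10 the lowest, and the log2 fold change was -0.11 (SE 0.15, 95% interval -0.43 to 0.22; limma, adjusted p = 0.916). With replicate 10 in the WT group it was 0.05. Npy5r was at 5.41, 4.35, 5.68, 5.32 and 4.06 CPM in the KO libraries and at 5.43, 3.73, 5.3 and 5.23 CPM in the WT libraries, in the same order. The groups overlapped over nearly their whole ranges, and the log2 fold change was 0.01 (SE 0.17, 95% interval -0.36 to 0.39; limma, adjusted p = 0.995). Within a library the ratio of Npy1r to Npy5r in CPM was 2.94 to 5.61 in KO (median 3.8) and 3.42 to 6.25 in WT (median 3.81), highest in WT replicate 3 and KO replicate 4.

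Mc4r (ENSMUSG00000047259) encodes the melanocortin 4 receptor, the main brain receptor through which alpha-MSH limits feeding. Its level was 2.83, 2.11, 2.01, 2.66 and 2.57 CPM in KO replicates 2, 4, 6, 8 and 10 and 3.89, 3.94, 2.3 and 3.31 CPM in WT replicates 1, 3, 9 and 11. All KO libraries were below 3 of the WT libraries, and WT replicate 9 lay within the KO range. Means were 2.44 ± 0.357 CPM in KO (SD, n = 5) and 3.36 ± 0.761 CPM in WT (SD, n = 4). The log2 fold change of -0.43 (SE 0.21, 95% interval -0.9 to 0.04) was the farthest from 0 among the 8 genes with replicate 10 as KO, whereas Agrp was farther without replicate 10 or with it in the WT group, and it did not pass the test (limma, adjusted p = 0.788; exact permutation test, two-sided, p = 0.0635). Between 11 and 52 reads per library lay behind these values, and the 95% exact Poisson intervals overlapped between groups, for example KO replicate 6 (1.01 to 3.6 CPM) and WT replicate 3 (2.79 to 5.4 CPM).

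**Figure D3:**
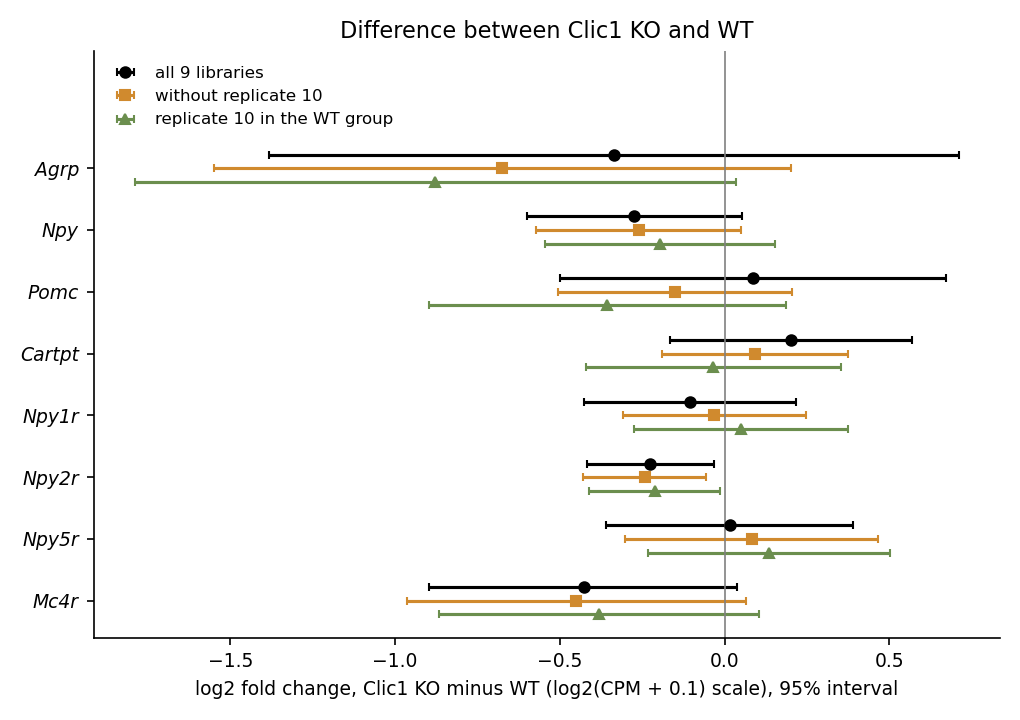
Log2 fold change from WT to Clic1 KO with its 95% interval for each gene, on all 9 libraries (black), without replicate 10 (orange) and with replicate 10 in the WT group (green). The Npy2r interval of -0.42 to -0.03 excludes 0, and the Pomc value moves from 0.09 to -0.15 and -0.36.

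AgRP neurons make both Agrp and Npy, and many POMC neurons make both Pomc and Cartpt. These pairs were therefore compared across the 9 libraries after the mean of each genotype was subtracted on the log2(CPM + 0.1) scale. Pairings were permuted over all 9 libraries, also across genotypes, although the values had been centred within each genotype. The p-values called exact permutation for these relations are therefore approximate. Agrp and Pomc were added as a pair after their values had been seen, which made 3 relations. Adjustment had been planned over 2 relations and ran over all 3, so the adjusted p-values of the planned pairs also depend on the added pair. Because the added pair was chosen by its values, its own p-values are not a test of it. Neither genotype had the 6 libraries needed for a value of its own. Pomc and Cartpt rose and fell together across libraries, with Pearson r = 0.84 (exact permutation p = 0.00397, adjusted 0.00596) and Spearman rho = 0.92 (exact permutation p = 0.00131, adjusted 0.00304). Without the 2 libraries farthest from the median in Pomc, KO replicates 10 and 6, r was 0.74 (exact permutation p = 0.0417), and without replicate 10 alone it was 0.75 (exact permutation p = 0.0319).

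For Agrp and Npy r was 0.37 (exact permutation p = 0.328, adjusted 0.328) and rho was 0.33 (exact permutation p = 0.385, adjusted 0.385). Replicate 10 combined the highest Agrp level with an Npy level of 19.1 CPM, and without replicates 10 and 6 r was 0.80 (exact permutation p = 0.023) and rho 0.64 (exact permutation p = 0.139). Agrp and Pomc, made by different neurons, had r = 0.94 (exact permutation p = 0.000391, adjusted 0.00117) and rho = 0.90 (exact permutation p = 0.00203, adjusted 0.00304). Without replicates 10 and 6 these were 0.82 (exact permutation p = 0.0325) and 0.64 (exact permutation p = 0.139). KO replicate 6, at 5470000 reads, was lowest and KO replicate 10, at 20800000 reads, was highest in both Agrp and Pomc, and the part of depth in these relations was not tested.

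**Figure D4:**
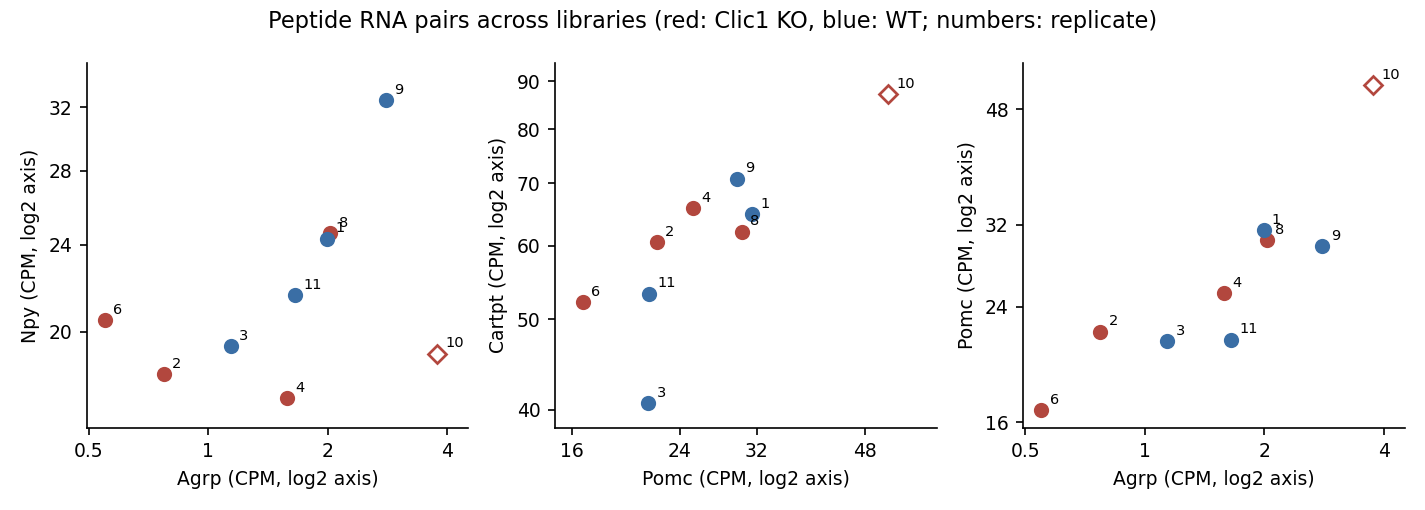
CPM of 3 pairs of peptide genes in each library on log2 axes, blue for WT and red for Clic1 KO, numbered by replicate, with replicate 10 as an open diamond. Libraries with more Pomc held more Cartpt (r = 0.82) and more Agrp (r = 0.89), whereas replicate 10 lies apart from the other libraries for Agrp and Npy. With the genotype means subtracted, which is not drawn, these r values were 0.84 and 0.94.

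Other genes of the melanocortin and neuropeptide Y system were taken from 5 lists of 38 genes, of which 36 were in the table and Npy4r and Npy6r were not. None of the 36 passed the test, 1 had an unadjusted p under 0.05, beside 6.5% of all genes, and the smallest adjusted p was 0.759 (limma). Log2 fold changes ran from -0.34 to 0.32 with a median of -0.05, 21 below 0 and 15 above it. Without replicate 10 the median was -0.02, with 20 below 0 and 16 above it, and with replicate 10 in the WT group it was 0.02, with 13 below 0 and 23 above it. The limma fit without replicate 10 gave 3 genes an unadjusted p under 0.05 (Bdnf, Htr2c and Otp). With that library in the WT group there were 2 (Bdnf and Otp). The share of all genes at that cut was not taken for these placements. In each list the pair of genes with the smallest unadjusted p is named here.

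Among the input genes (11 of 11, median log2 fold change -0.08) were Htr2c, the serotonin receptor gene known for its action in POMC neurons, and Esr1, the estrogen receptor alpha gene. Htr2c was at 98.1 ± 18.8 CPM in KO (SD, n = 5) and 123.3 ± 17.4 CPM in WT (SD, n = 4), with a log2 fold change of -0.34 (SE 0.15; limma, adjusted p = 0.759). Replicate 10 had the lowest Htr2c level at 65.1 CPM, the other KO libraries had 102.3 to 112.6 CPM and the WT libraries 102.7 to 139.8 CPM, so the groups overlapped. Without replicate 10 the log2 fold change of Htr2c was -0.20 (limma, adjusted p = 0.375). Esr1 had a log2 fold change of -0.23 (adjusted p = 0.845 in the limma fit) and -0.12 without replicate 10.

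Peptide-processing genes (7 of 7, median 0.01) included Pcsk1n, which encodes the proSAAS inhibitor of a prohormone convertase, at 945.6 ± 307.1 CPM in KO (SD, n = 5) and 736.3 ± 54.4 CPM in WT (SD, n = 4; limma, adjusted p = 0.803). Replicate 10 held 1482.1 CPM of Pcsk1n and the other KO libraries 723.7 to 905.1 CPM, and its log2 fold change was 0.31 with replicate 10 and 0.14 without it. The amidating enzyme gene Pam had a log2 fold change of 0.11 (limma, adjusted p = 0.857), also with its highest level, 553.6 CPM, in replicate 10, and 0.04 without that library. Of the other receptors and accessory proteins (5 of 7, median -0.04), Sdc3, which encodes a syndecan that aids AgRP action, was at -0.13, or 0.02 without replicate 10, and Atrn, the attractin gene, at -0.04. Transcription factors of AgRP and POMC neurons (8 of 8, median 0.0) were led by Tbx3 at -0.25 (limma, adjusted p = 0.828) and Foxo1 at -0.16 (limma, adjusted p = 0.862), both lowest in replicate 10, at 17.8 and 32.6 CPM, and at -0.13 and -0.03 without it. Downstream targets (5 of 5, median -0.09) were led by the neurotrophin gene Bdnf at -0.23 (limma, adjusted p = 0.803), or -0.33 without replicate 10 (limma, adjusted p = 0.204), and Ntrk2, the gene of its receptor, at -0.09.

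**Figure D5:**
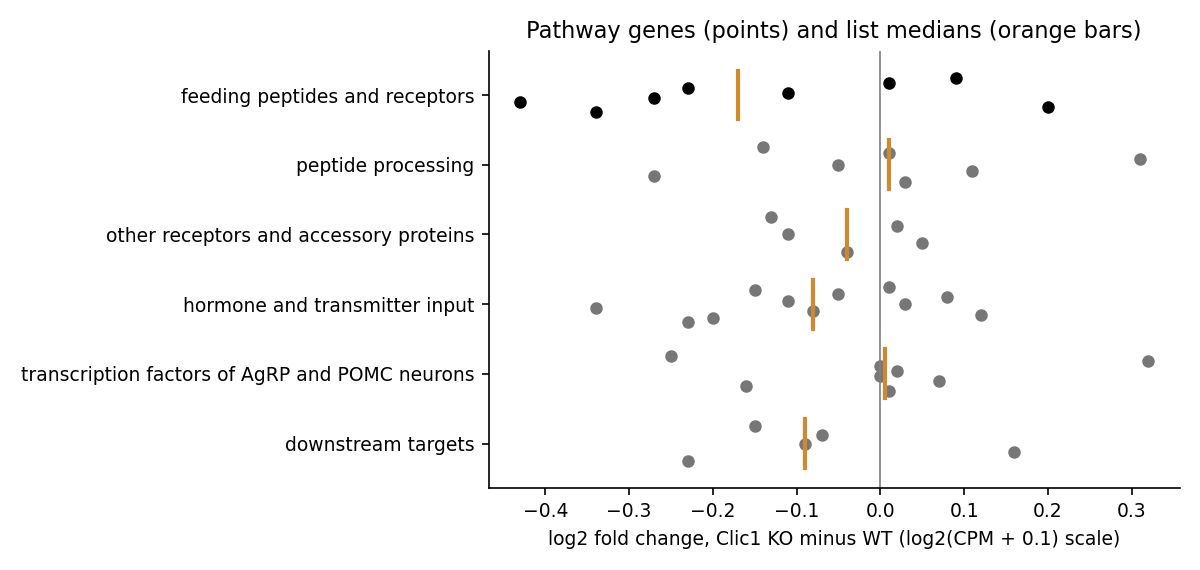
Log2 fold change from WT to Clic1 KO for each of the 8 genes (black) and for each gene of the 5 lists (grey), with the median of each row as an orange bar. The medians of the lists lie between -0.09 and 0.01, beside -0.17 for the 8 genes.

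Genes with the most similar pattern to each member were sought among 12071 other genes whose mean reached 5 CPM, by Pearson r across the 9 libraries after subtraction of the genotype means, and r is given as a description only. Agrp, Npy5r and Mc4r were below that mean level and were not included. Npy was most like Cdkl4 (r = 0.943) and Actg1 (0.942). Pomc was most like Arhgef26 (0.975) and Msn (0.971), and Cartpt was most like Ciao2a (0.989) and Nectin2 (0.97). Npy1r was most like Bmpr1a (0.967) and Abhd17b (0.96), and Npy2r was most like Crb1 (0.962) and Klhl1 (0.936). Without replicate 10 these values of r were between 0.92 and 0.99. With 9 libraries and so many genes searched, such values are the largest of many.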

How the data were processed

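RNA sequencing values of 9 mouse hypothalami were used. The authors checked reads with FastQC 0.11.8, trimmed them with Trimmomatic 0.38, aligned them to GRCm38.p6 with STAR 2.5.1a, quantified genes with RSEM 1.3.0, kept genes with at least 1 CPM in at least 5 samples and applied the TMM method of edgeR. The deposited signal values are these normalised CPM, not counts, with column sums of 988000 to 1027000. Estimated reads came from the steps between low values, of which 81.0 to 86.5% (values up to 2.5 CPM) were within 0.03 reads of whole. These were not whole for nearly all genes, so no count test was the main test. A second deposited table paired gene identifiers with symbols and held the authors' fold changes, scores and p-values, which were not used. The table also held 1 column of library values outside the 9 samples, which was left out.

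Here KO and WT were compared with limma 3.58.1 in R 4.3.3 (lmFit, eBayes with trend) on log2(CPM + 0.1) with Benjamini-Hochberg adjustment, beside exact permutation of group means over 126 splits and, for relations between genes, of pairings (scipy 1.17.1). Separate mice are assumed to be the replicates, and p-values measure the spread between these libraries. Replicate 10 was placed by its description label. A fold change on this scale understates the change of low genes. The fit was tested on simulated data. Named genes were the 8 members, Clic1, in each pathway or marker list every gene past the threshold or otherwise the pair with the smallest unadjusted p, and for each member whose mean reached 5 CPM the pair of genes most like it. In the oligodendrocyte list, 1 gene named by this rule is not reported here. The members and lists were chosen with earlier results of these data known. Gene positions and exon lengths came from GENCODE M21 (GRCm38). Alternatives changed the pseudocount, low-value filter, scaling, variance trend, sample weights, model (limma-voom on estimated counts), threshold, placement of replicate 10 and each library in turn. The comparisons of libraries that do not overlap without or with replicate 10 and the pair of Agrp and Pomc were added after the data were seen.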

Additional observations from a re-analysis of the deposited data

Results flagged for a closer look

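Npy5r in WT replicate 3 was 3.73 CPM, whereas the other WT libraries had 5.23 to 5.43 CPM. Its gap to the nearest of them was 0.887 of the range of the group, which is above the critical value for 4 samples. Of 18 groups tested, covering the 8 genes and Clic1 in each genotype, 1 held such a sample, and chance flags about 1 group in 20, or 0.9 of the 18.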

How the results depend on the processing

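None of the 8 genes and none of the 36 genes of the pathway lists passed the test in the comparison as reported or under any of the 19 alternatives. Of 141 comparisons of these 8 genes under alternatives, 131 kept their direction, 10 changed direction and 0 passed the threshold, and the lowest adjusted p was 0.207 (Npy2r with limma sample weights, in which replicate 10 had a weight of 0.129). Pomc was -0.13 (log2 fold change) with sample weights, -0.36 with replicate 10 in the WT group and between -0.15 and 0.26 when single libraries were left out, the negative value being that without replicate 10. With replicate 10 in the WT group, Cartpt was -0.03 and Npy1r 0.05, while leaving out single libraries gave 0.05 to 0.31 and -0.19 to -0.03. Npy5r was -0.05 with limma-voom and between -0.11 and 0.08 when single libraries were left out. Over the same omissions Agrp was between -0.67 and -0.03, Npy between -0.38 and -0.13, Npy2r between -0.26 and -0.18 and Mc4r between -0.59 and -0.34. Of 18 alternatives, 14 gave Npy2r an unadjusted p under 0.05. The relation of Agrp and Npy rose to r = 0.80 without KO replicates 10 and 6, and leaving out single libraries gave 0.22 to 0.59 for it, 0.75 to 0.94 for Pomc and Cartpt and 0.89 to 0.95 for Agrp and Pomc.

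The count of all genes past the threshold was 41. It was 27 among genes whose mean reached 5 CPM, 135 with sample weights, 5 with replicate 10 in the WT group and 18 to 87 when single libraries were left out, 18 without WT replicate 1, 19 without WT replicate 3, 22 without WT replicate 11, 24 without WT replicate 9, 25 without KO replicate 8, 27 without KO replicate 6 and 87 without KO replicate 10. The cause of these changes was not tested. Agrp, Npy5r and Mc4r have no value under the 5 CPM filter. No paired analysis was made, because the litter of each mouse was not given in the sources used here. KO and WT libraries also shared no replicate number. Depth limits Agrp and Mc4r most, with 3 to 76 and 11 to 52 reads per library.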

Other observations

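Ratios of peptide genes within a library, in CPM, are given as values. The ratio of Npy to Pomc was 0.366 to 1.23 in KO (median 0.809) and 0.775 to 1.09 in WT (median 0.96), and replicate 10 held the lowest value. The ratio of Agrp to Npy was 0.0268 to 0.196 in KO (median 0.0828) and 0.0588 to 0.0862 in WT (median 0.0791), with replicate 10 at 0.196 and KO replicate 6 at 0.0268. The ratio of Agrp to Pomc was 0.033 to 0.0718 in KO (median 0.0628) and 0.0534 to 0.0943 in WT (median 0.0704). It spanned less than the ratio of Agrp to Npy in KO and more in WT. The ratio of Cartpt to Pomc was 1.67 to 3.13 in KO (median 2.61) and 1.91 to 2.5 in WT (median 2.23), and that of Npy2r to Npy1r was 0.904 to 1.48 in KO (median 1.1) and 1.09 to 1.38 in WT (median 1.26). The groups overlapped in all of these ratios.

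The median coefficient of variation between libraries, over genes whose mean reached 5 CPM, was 12.2% in KO, 7.03% in KO without replicate 10 and 7.51% in WT. Among the 8 genes it was higher in KO than in WT for Agrp, Pomc, Npy1r and Npy2r and lower for Npy, Cartpt, Npy5r and Mc4r, and each of these orders also held without replicate 10. Agrp had 73.5% in KO, 56.1% in KO without replicate 10 and 36.8% in WT, and Pomc had 47.1%, 24.3% and 20.6%. Npy2r had 8.78%, 9.81% and 1.94%, and Npy had 14.0%, 15.8% and 23.4%. Estimated reads behind Agrp were 3 to 13 in the KO libraries without replicate 10 and 11 to 28 in the WT libraries. Those behind Npy2r were 130 to 461 in KO and 180 to 281 in WT. The exact Poisson interval of Npy2r in WT replicate 11, 21.3 to 28.7 CPM, held all WT levels, 24.8 to 26.0 CPM. The part of counting error in these coefficients and in their order between genotypes was not tested.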
